A study of Mus musculus with 4 samples.

Results

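Naive and memory T cell genes, as the term is used here, are Tcf7, Lef1, Satb1, Klf2, Il7r, S1pr1 and Ltb, 7 of the 31053 genes counted in single-cell RNA libraries of mouse liver. They were taken by symbol, and each symbol matched 1 row (ENSMUSG00000000782, ENSMUSG00000027985, ENSMUSG00000023927, ENSMUSG00000055148, ENSMUSG00000003882, ENSMUSG00000045092 and ENSMUSG00000024399, in that order). All mice were C57BL/6, the age field gives 17 months, and the titles give 15 months. The 4 groups were low-AFP, high-AFP, HCC and control, with 1 library each. AFP is alpha-fetoprotein, a fetal liver protein used as a tumour marker, and the labels do not say how it was measured. The low-AFP title names the CD-HFD diet and the control title names the control diet. The high-AFP title also names the control diet although its file is named for the CD-HFD diet, so its diet is uncertain. The HCC library came from the region of a hepatocellular carcinoma. The protocol, given for all libraries, mixes purified hepatocytes and cholangiocytes with live-sorted non-parenchymal cells. How many animals a library held is not stated in the labels. The series title names obesity and liver cancer, so the comparisons here ask how these genes differ between T cell subsets and between the libraries.

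T cells that have not met antigen, and memory cells that recirculate, keep a shared programme that is switched off as cells become effector or exhausted cells. The transcription factors TCF-1 (Tcf7) and LEF-1 (Lef1) hold that programme, SATB1 (Satb1) organises chromatin in developing and naive T cells, and KLF2 (Klf2) drives the gene of the egress receptor S1PR1 (S1pr1). The receptor for interleukin 7 (Il7r) gives a survival signal, and lymphotoxin beta (Ltb) is a membrane ligand that shapes lymphoid tissue. In infected and tumour-bearing tissue, CD8 T cells with the checkpoint receptor PD-1 (Pdcd1) and TCF-1 are known as the renewing fraction of exhausted cells.

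Promoter windows are shown for 4 of the genes because all 7 differed in the same direction between CD8 cells with and without Pdcd1 RNA, as described further on. The sequences are the 250 bases before a transcript start in RefSeq (GRCm38.p6), 5′ to 3′ on the gene's strand, and 6 of the 7 genes had 14 windows among them. Capitals mark 3 short motifs searched on both strands, which do not overlap each other in the windows printed: the KLF motif CCACCC, the TCF/LEF motif CTTTGA and the forkhead motif GTAAACA. Of all 32851 windows of this length, 28.1% held the KLF motif, 13.8% the TCF/LEF motif and 3.17% the forkhead motif.
Tcf7, chr11:52282596-52282845, minus strand: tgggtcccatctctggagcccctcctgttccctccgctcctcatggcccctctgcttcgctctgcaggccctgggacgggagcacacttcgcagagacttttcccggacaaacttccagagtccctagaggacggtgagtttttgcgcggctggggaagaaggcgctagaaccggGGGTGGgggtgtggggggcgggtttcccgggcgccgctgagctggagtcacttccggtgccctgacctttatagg
Lef1, chr3:131156044-131156293, plus strand: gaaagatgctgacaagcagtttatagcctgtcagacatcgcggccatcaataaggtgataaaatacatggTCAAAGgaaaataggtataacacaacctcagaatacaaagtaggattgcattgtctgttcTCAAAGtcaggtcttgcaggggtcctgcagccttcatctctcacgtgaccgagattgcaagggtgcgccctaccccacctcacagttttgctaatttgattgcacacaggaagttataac
Klf2, chr8:72318812-72319061, plus strand: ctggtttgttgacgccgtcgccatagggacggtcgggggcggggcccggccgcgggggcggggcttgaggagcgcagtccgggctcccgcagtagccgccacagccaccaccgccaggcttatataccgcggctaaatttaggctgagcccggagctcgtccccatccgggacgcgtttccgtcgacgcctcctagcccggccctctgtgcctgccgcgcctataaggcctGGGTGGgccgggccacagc
Ltb, chr17:35194257-35194506, plus strand: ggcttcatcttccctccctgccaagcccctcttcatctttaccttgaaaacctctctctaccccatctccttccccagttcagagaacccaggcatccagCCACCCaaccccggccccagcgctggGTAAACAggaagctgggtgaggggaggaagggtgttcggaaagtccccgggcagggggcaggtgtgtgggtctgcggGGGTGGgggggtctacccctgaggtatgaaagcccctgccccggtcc
Tcf7 has a KLF match 70 to 75 bases before the start in this window, and Klf2 has one at 14 to 19 bases. The other window of Tcf7 (chr11:52283015-52283264, minus strand) held none of the 3 motifs. In this window of Lef1, 1 of 4, TCF/LEF matches lie at 115 to 120 and 175 to 180 bases before the start. The other windows of Lef1 held KLF matches and no TCF/LEF match. Ltb has the forkhead match at 118 to 124 bases and KLF matches at 42 to 47 and 145 to 150 bases. The 1 window of Il7r (chr15:9529877-9530126, minus strand) held none of the 3 motifs. Motifs and windows were picked with the sequences in view, and a match describes letters, not a bound site.

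Before the comparisons, the libraries themselves differed. Filtering left 5129 low-AFP, 7902 high-AFP, 7491 HCC and 6036 control cells, 26558 in all. Barcodes removed for more than 30% mitochondrial UMIs were 8.19% in HCC and 26.5% to 42.7% in the other libraries. T cells were cells of T-like or NK-like clusters with a Cd3d, Cd3e or Cd3g UMI, 393 low-AFP, 491 high-AFP, 2495 HCC and 355 control cells. They were split by UMIs of Cd8a or Cd8b1, Cd4, and Trdc (the constant region of the delta chain of the T cell receptor), with clusters built without the 7 genes. CD8 cells made up 61.3%, 67.4%, 82.8% and 25.6% of low-AFP, high-AFP, HCC and control T cells, and 49.9% of the control T cells had no subset marker. The HCC library stood apart: 74.2% of its CD8 cells were in cluster 4 and 22.6% in cluster 9, whereas cluster 8 held 85.9%, 85.8% and 93.4% of those in low-AFP, high-AFP and control. Pairs of libraries shared 23 to 39 barcodes.

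Levels are UMIs summed over the cells of a class in a library, per 1000000 nuclear-encoded UMIs (CPM), with exact 95% Poisson intervals, and shares carry exact Clopper-Pearson intervals. Both cover counting error only. With 1 library a group, no test between libraries was made, and such differences describe these libraries. The counts are of transcript ends, so CPM needs no division by transcript length.

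Across the cell classes, the 7 genes did not mark T cells equally. Lef1 was the most nearly restricted of them: its mean over libraries was 72.8 ± 14.5 CPM in conventional CD4 T cells (CD4 without a Foxp3 UMI; SD, n = 4) and 62.4 ± 27.8 CPM in CD8 cells without Pdcd1 (n = 4), against 3.84 to 18.1 CPM over the 4 libraries in NK-like cells and 4.41 ± 3.75 CPM in B-like cells (n = 4). Tcf7 averaged 189 ± 59.9 CPM in conventional CD4 cells and 145 ± 54.8 CPM in CD8 cells without Pdcd1, and NK-like cells, which use TCF-1 in development, followed at 109 ± 30.9 CPM (n = 4 each). The library values of these 3 classes overlapped. Tcf7 was also above 30 CPM in mature dendritic-like cells of every library, which had 40.4, 33.6, 49.7 and 32.6 CPM in low-AFP, high-AFP, HCC and control.

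Il7r reached 1130 CPM in Trdc T cells of HCC, the only library with at least 20 such cells, and 619 ± 104 CPM in conventional CD4 cells (n = 4). Outside T cells, Il7r was at 283 ± 74.3 CPM in plasmacytoid dendritic-like cells and 142 ± 22.6 CPM in mature dendritic-like cells, levels between which CD8 cells (264 ± 144 CPM) and NK-like cells (162 ± 41.6 CPM) fell (n = 4 each). S1pr1 was highest in endothelial-like cells, at 304 ± 72.0 CPM, where the receptor is known to keep vessels tight. Conventional CD4 cells (180 ± 78.6 CPM) and B-like cells (129 ± 15.0 CPM) came next in S1pr1 and overlapped, while NK-like cells of low-AFP, high-AFP and control had 0 UMIs of it.

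Klf2 was higher in several other classes than in T cells. It stood at 1912 ± 708 CPM in neutrophil-like cells, 1208 ± 480 CPM in B-like cells and 1120 ± 221 CPM in endothelial-like cells, where shear stress is known to induce it, against 571 ± 337 CPM in conventional CD4 cells (n = 4 each). The only library with at least 20 non-classical monocyte-like cells, HCC, had 2425 CPM there. Satb1 was about as high in B-like cells (206 ± 119 CPM) and NK-like cells (99.8 to 299 CPM over the 4 libraries) as in CD8 cells without Pdcd1 (136 ± 39.9 CPM), with spreads that overlap. Ltb was at 1063 ± 26.7 CPM in conventional CD4 cells, 841 ± 132 CPM in neutrophil-like cells, 834 ± 159 CPM in NK-like cells and 823 ± 144 CPM in B-like cells (n = 4 each), and the last 3 of these did not differ beyond their spread. In hepatocyte-like cells the means of Tcf7, Lef1, Il7r, Satb1 and Ltb were between 0.599 and 4.04 CPM. Klf2 was at 12.0 ± 11.8 CPM there and S1pr1 at 38.2 ± 10.9 CPM (n = 4 each). That S1pr1 mean was above the 25.0 ± 6.47 CPM in CD8 cells with Pdcd1 (n = 3).

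**Figure D1:**
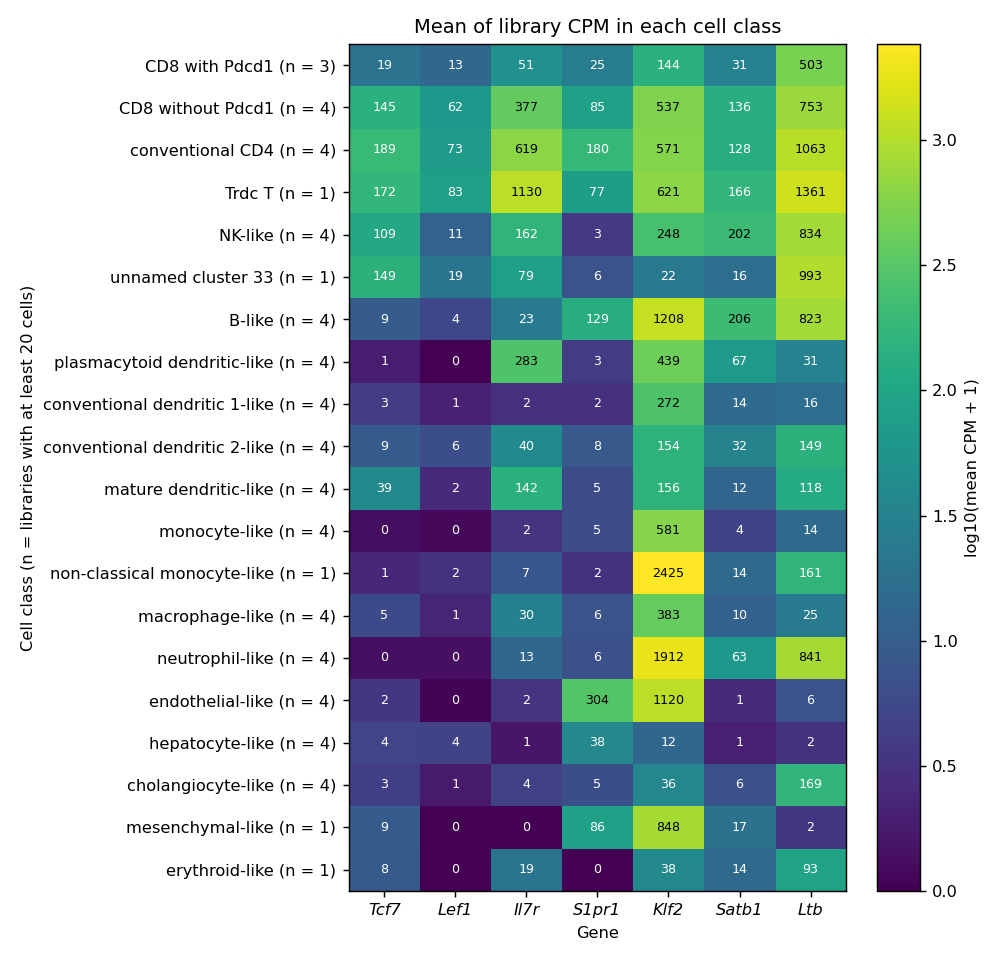
Mean CPM of each gene (columns) in each cell class (rows), averaged over the libraries with at least 20 cells of that class, coloured by log10(mean CPM + 1). The bright cells of Klf2 lie in neutrophil-like, B-like, endothelial-like and non-classical monocyte-like cells, S1pr1 peaks in endothelial-like cells at 304 CPM, and Lef1 is above 20 CPM only in T cell subsets.

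Within CD8 cells, all 7 genes were lower where Pdcd1 RNA was present. The split used Pdcd1 itself, so Pdcd1 is no result here, and CD8 cells with a Pdcd1 UMI numbered 96, 141 and 1154 for low-AFP, high-AFP and HCC (control had 8, too few to use). Median depth was close in both parts: 4391, 3993 and 4356 UMIs with Pdcd1 in low-AFP, high-AFP and HCC, and 4324, 3639 and 4226 UMIs without. A cell without a Pdcd1 UMI may still express the gene. Tests between subsets used edgeR's quasi-likelihood fit on UMI sums with the library as a block, p-values were adjusted by Benjamini-Hochberg over 7835 genes, and the threshold was 0.05.

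Tcf7 was at 8.16 (2.22 to 20.9), 22.3 (12.5 to 36.8) and 25.1 (21.2 to 29.6) CPM in CD8 cells with Pdcd1 of low-AFP, high-AFP and HCC. CD8 cells without Pdcd1 had 113 (89.1 to 142), 121 (97.6 to 149) and 117 (107 to 128) CPM of it in those libraries, and 227 (181 to 279) CPM in control. The 2 sets of intervals do not meet, and Tcf7 fell by 2.55 ± 0.19 (SE) on the log2 scale (edgeR adjusted p = 4.9e-12). Lef1, the partner factor, was at 10.2, 14.9 and 13.3 CPM with Pdcd1, against 37.2, 49.9 and 60.8 CPM without, a log2 fold change of -2.20 ± 0.22 (edgeR adjusted p = 3.3e-09). Satb1 had 22.4, 41.7 and 27.6 CPM with Pdcd1, against 103, 103 and 156 CPM without, and its log2 fold change was -2.18 ± 0.23 (edgeR adjusted p = 9.1e-09). For each of these transcription factors the highest library with Pdcd1 was below the lowest without.

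Klf2 and its target gene S1pr1 fell as well. Klf2 was at 141, 153 and 137 CPM in CD8 cells with Pdcd1 of low-AFP, high-AFP and HCC, against 543, 484 and 567 CPM in those without, a log2 fold change of -2.11 ± 0.20 (edgeR adjusted p = 8.7e-10). S1pr1 was at 18.4, 31.3 and 25.5 CPM with Pdcd1, against 72.9, 79.6 and 90.8 CPM without, a log2 fold change of -1.88 ± 0.19 (edgeR adjusted p = 3.3e-09). The receptor gene Il7r had the largest difference of the 7: 44.9, 47.7 and 61.3 CPM with Pdcd1, against 376, 270 and 340 CPM without, a log2 fold change of -2.76 ± 0.16 (edgeR adjusted p = 6.3e-15). Ltb, the ligand, moved least, with 491, 541 and 477 CPM with Pdcd1, against 774, 635 and 609 CPM without, and a log2 fold change of -0.51 ± 0.11 (edgeR adjusted p = 0.0013). In CD8 cells with Pdcd1 of each library, Ltb was the most abundant of the 7 genes.

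All 7 genes were called lower in this contrast, where 4.53% of the 7835 genes tested were called lower, and the median log2 fold change was -2.18 over the 7 genes and 0.00249 over all genes. Each gene was lower in 3 of 3 libraries. Of 22 other genes of naive and central memory T cells, 12 fell and none rose. They included Dapl1 (-3.77 ± 0.38), the lymph node homing receptor Ccr7 (-3.22 ± 0.26) and Nsg2 (-3.09 ± 0.42). Cd27, Cd28, Bcl2 and Foxo1 of that list did not pass the test. Partners of the 7 genes were read against the 8.41% of all genes called in either direction: 1 of 11 measured interleukin 7 signalling genes fell (Pim1, -0.67 ± 0.15), 1 of 8 sphingosine 1-phosphate and egress genes fell (S1pr4, -0.72 ± 0.16), and 2 of 8 TCF and beta-catenin genes fell (Axin2, -2.26 ± 0.50, and Bcl9l, -0.61 ± 0.19). Of 6 lymphotoxin genes, Tnfrsf1b rose (0.84 ± 0.16) and Tnfsf14 fell (-1.41 ± 0.45). Of 18 cytotoxic and effector genes, 12 rose and none fell, led by the chemokine genes Ccl3 (2.72 ± 0.26) and Ccl4 (2.15 ± 0.25). Of 11 inhibitory receptor and exhaustion genes, 10 rose, Pdcd1 itself among them, with Lag3 (1.55 ± 0.16) and Nr4a2 (1.42 ± 0.17) next in size. Of 9 tissue residence genes 3 rose and 1 fell, of 8 regulatory T cell genes 4 rose, and of 9 interleukin 17 and gamma delta genes 1 rose and 1 fell. All values in these sentences are log2 fold changes ± SE of genes with an edgeR adjusted p under the threshold. Of 8 cell cycle genes 7 rose, of 14 dissociation response genes 2 rose and 5 fell, and none of 12 hepatocyte genes, which mark free RNA in droplets, was called; their part in the result was not tested. Without the library block, 46 genes were called in place of 659, and Satb1 (edgeR adjusted p = 0.11) and Ltb (0.12) were no longer among the 7 called. Ltb also lost its call when T cells were chosen by markers alone (edgeR adjusted p = 0.18).

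**Figure D2:**
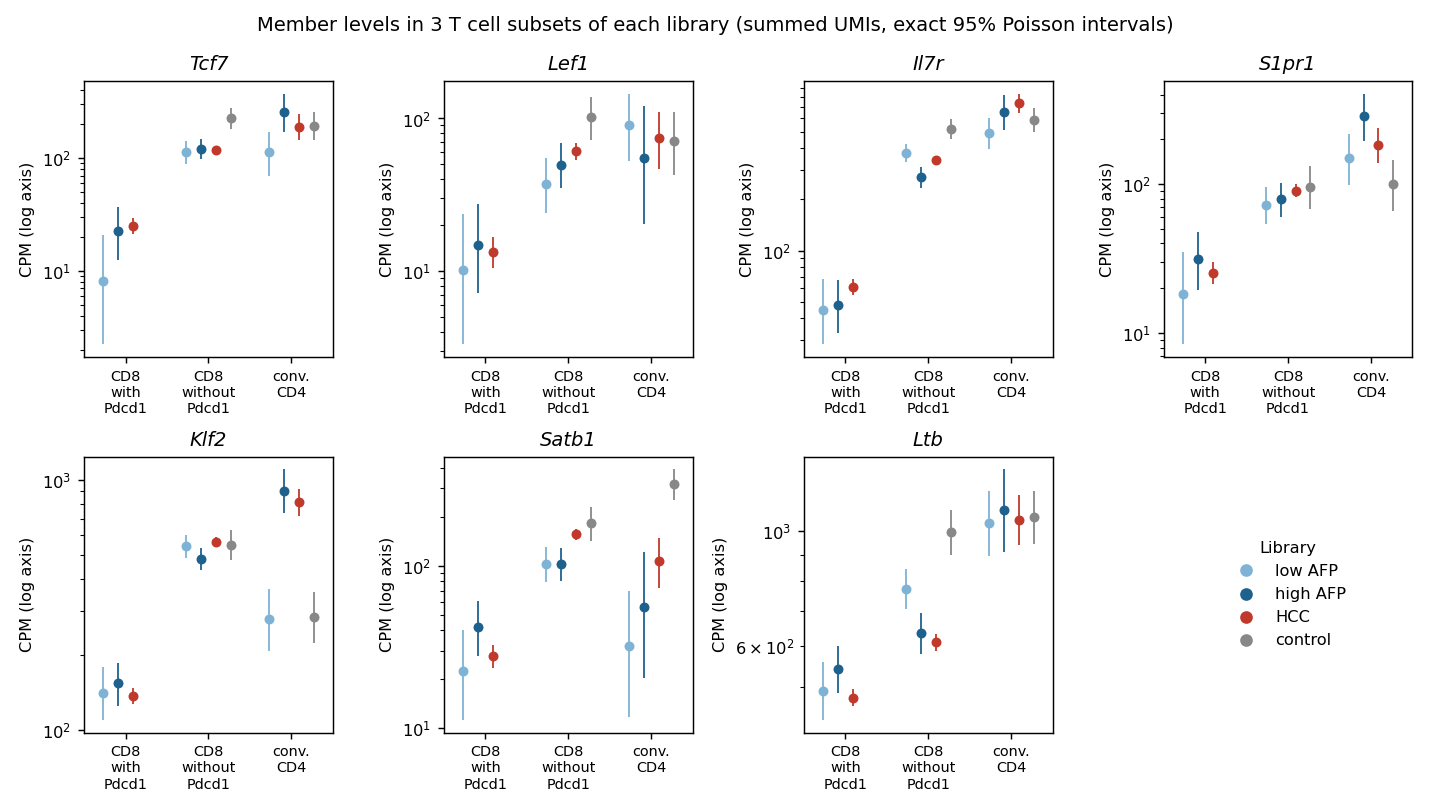
CPM (log axis) of each gene in CD8 cells with Pdcd1, CD8 cells without Pdcd1 and conventional CD4 cells, 1 point per library with its exact 95% Poisson interval; control has too few CD8 cells with Pdcd1 to plot. For Tcf7, Lef1, Il7r, S1pr1, Klf2 and Satb1 each point of CD8 cells with Pdcd1 lies under all points of CD8 cells without it.

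CD8 cells were then set against conventional CD4 cells, with CD8 taken as the mean of its 2 parts. The difference between CD8 cells with and without Pdcd1 is therefore part of this contrast by construction, not a separate result. Only 3 libraries held both parts and CD4 cells. Control entered the fit without a sum of CD8 cells with Pdcd1. The CPM values, ratios and counts of libraries below are of all CD8 cells of a library, control included. All 7 genes were called lower in CD8, where 3.27% of 7835 genes were, and the median log2 fold change was -1.25 over the 7 genes and 0.00582 over all genes. Il7r had 237, 164, 180 and 475 CPM in all CD8 cells of low-AFP, high-AFP, HCC and control, against 492, 656, 737 and 590 CPM in conventional CD4 cells, and a log2 fold change of -2.02 ± 0.13 (edgeR adjusted p = 2.7e-14). S1pr1 had 49.9, 56.6, 53.4 and 93.6 CPM in CD8 cells, against 150, 287, 183 and 101 CPM in CD4 cells, with a log2 fold change of -1.85 ± 0.19 (edgeR adjusted p = 8.0e-09). Both genes were lower in CD8 in 4 of 4 libraries, but in control the ratio of S1pr1 was 0.928 with an interval of 0.556 to 1.57.

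Tcf7 had 68.8, 74.3, 64.4 and 213 CPM in CD8 cells of low-AFP, high-AFP, HCC and control, against 112, 259, 190 and 194 CPM in CD4 cells, and its log2 fold change was -1.57 ± 0.19 (edgeR adjusted p = 2.2e-07). It was lower in CD8 in the low-AFP, high-AFP and HCC libraries and not in control, but in low-AFP the ratio was 0.613 with an interval of 0.375 to 1.04. Ltb had a log2 fold change of -0.68 ± 0.09 (edgeR adjusted p = 3.6e-06) and was lower in 4 of 4 libraries, with a ratio of 0.886 (0.760 to 1.04) in control. Lef1 had a log2 fold change of -1.25 ± 0.26 (edgeR adjusted p = 0.0011). Its ratio was 1.35 (0.767 to 2.47) in control and 0.284, 0.600 and 0.454 in low-AFP, high-AFP and HCC. The high-AFP ratio had an interval of 0.256 to 1.72, from 6 UMIs in CD4 cells. Klf2, at -0.95 ± 0.17 (edgeR adjusted p = 1.7e-04), and Satb1, at -0.83 ± 0.25 (edgeR adjusted p = 0.037), did not move one way in every library. The ratio of Klf2 over all CD8 and CD4 cells was 1.34, 0.361, 0.393 and 1.79 in low-AFP, high-AFP, HCC and control. That of Satb1 was 2.14, 1.33, 0.776 and 0.59. The fitted values of both genes are the mean over the 2 parts of CD8, whereas these ratios weigh cells. For CD8 cells without Pdcd1 alone, the fitted log2 fold changes against CD4 were 0.10 ± 0.18 for Klf2 and 0.26 ± 0.23 for Satb1. Neither was called, so the lower fitted values of these genes come with the part that has Pdcd1. What else sets fitted values and ratios apart was not tested. For Satb1, CD8 cells without Pdcd1 alone had ratios to CD4 of 3.20, 1.85, 1.47 and 0.574 in the same order. In the contrast with both parts of CD8, the fitted log2 fold change of Satb1 was -0.24 without the control library.

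Of 22 other naive and central memory genes 5 fell and none rose, led by Il6ra (-2.58 ± 0.39) and Ccr7 (-1.28 ± 0.34). Pim1 (-1.05 ± 0.15), S1pr4 (-0.82 ± 0.20), Tnfsf14 (-1.74 ± 0.51) and Axin2 (-1.98 ± 0.54) were the 1 gene called, each lower, in the interleukin 7, egress, lymphotoxin and TCF lists. Of 18 cytotoxic and effector genes 12 rose and none fell, and of 9 tissue residence genes 2 rose and 1 fell. Of 11 inhibitory receptor and exhaustion genes 5 rose and 2 fell, Ctla4 and Pdcd1. Pdcd1 is no result here either, because 1 part of CD8 was chosen for having no Pdcd1 UMI. Lists of other cells and states moved as well. Of 9 interleukin 17 and gamma delta genes 4 fell (Il17a, Il17f, Ccr6 and Maf), and of 8 regulatory T cell genes 5 fell, Il2ra, Tnfrsf4 and Capg among them, although cells with a Foxp3 UMI were left out of conventional CD4. Dissociation response genes fell in 7 of 14 cases and rose in 1, 6 of 8 cell cycle genes rose and 3 of 12 hepatocyte genes fell. The part of these lists in the result was not tested.

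Some of these calls changed without the HCC library or the block. Without HCC, 216 genes were called in place of 468, and Lef1 (edgeR adjusted p = 0.10), Klf2 (0.14) and Satb1 (0.38) were not. Without the block 137 genes were called, and Klf2 (edgeR adjusted p = 0.15) and Satb1 (0.38) were not. Satb1 was also lost without control (edgeR adjusted p = 0.76), with T cells chosen by markers alone (0.27), with only the subsets compared in the fit (0.057) and in DESeq2 (adjusted p = 0.73). Tcf7, Il7r, S1pr1 and Ltb were called in each of the 16 alternatives.

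Set against conventional CD4 cells, CD8 cells without Pdcd1 gave fewer calls, in a contrast added after the data were seen. Here 3 of the 7 genes were called lower, where 1.99% of 7835 genes were: S1pr1 (-0.91 ± 0.19, edgeR adjusted p = 0.0016), Il7r (-0.64 ± 0.13, edgeR adjusted p = 0.0014) and Ltb (-0.42 ± 0.10, edgeR adjusted p = 0.0090). Tcf7 (-0.29 ± 0.18), Lef1 (-0.15 ± 0.24), Klf2 (0.10 ± 0.18) and Satb1 (0.26 ± 0.23) had edgeR adjusted p-values of 0.52, 0.88, 0.90 and 0.73. None of the 7 was called lower without the block or without high-AFP. Only 1 was without HCC or with 2 UMIs of the subset marker, where S1pr1 was at -0.48 (edgeR adjusted p = 0.58). With markers alone, without cluster 30 or without Mki67 or Top2a cells 2 were, and Ltb was the one lost. The share of all genes called lower under these alternatives was not set beside the counts. Of the 22 other naive and central memory genes 3 rose and 2 fell: Txk (0.73 ± 0.18) and Bcl2 (0.48 ± 0.13) were among those higher, and Il6ra (-1.25 ± 0.36) and Cd28 (-0.58 ± 0.12) were lower, in CD8 cells without Pdcd1. The same 4 interleukin 17 and gamma delta genes and 5 of 8 regulatory T cell genes were lower here too, and their part was not tested.

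**Figure D3:**
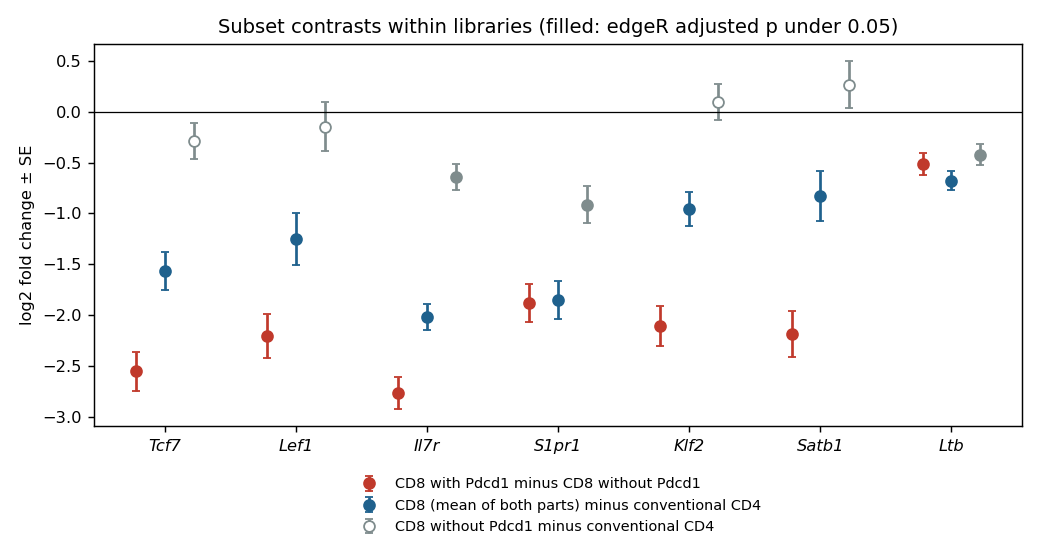
Log2 fold changes ± SE of the 7 genes in 3 contrasts between T cell subsets from 1 edgeR fit, filled where the adjusted p was under 0.05. The red points (CD8 with Pdcd1 minus CD8 without) lie between -2.76 for Il7r and -0.51 for Ltb, and the grey points (CD8 without Pdcd1 minus conventional CD4) lie between -0.91 for S1pr1 and 0.26 for Satb1.

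Per cell, the genes were counted after thinning. When each cell was thinned to 1000 UMIs at random, none of the 7 was seen in 54.2%, 51.1% and 55.3% of CD8 cells with Pdcd1 in low-AFP, high-AFP and HCC. In CD8 cells without Pdcd1 that share was 21.3%, 42.2%, 39.9% and 16.0% in low-AFP, high-AFP, HCC and control, and in conventional CD4 cells it was 16.0%, 10.8%, 13.8% and 16.2%. Cells with 2 or more of the genes were 7.29%, 9.22% and 7.73% of CD8 cells with Pdcd1, against 36.2%, 26.2%, 26.2% and 49.4% of those without, in the same order of libraries. The intervals of the shares with none separate CD8 cells with Pdcd1 from those without in low-AFP and HCC, and overlap in high-AFP, where they were 42.5% to 59.6% with Pdcd1 and 35.1% to 49.7% without.

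**Figure D4:**
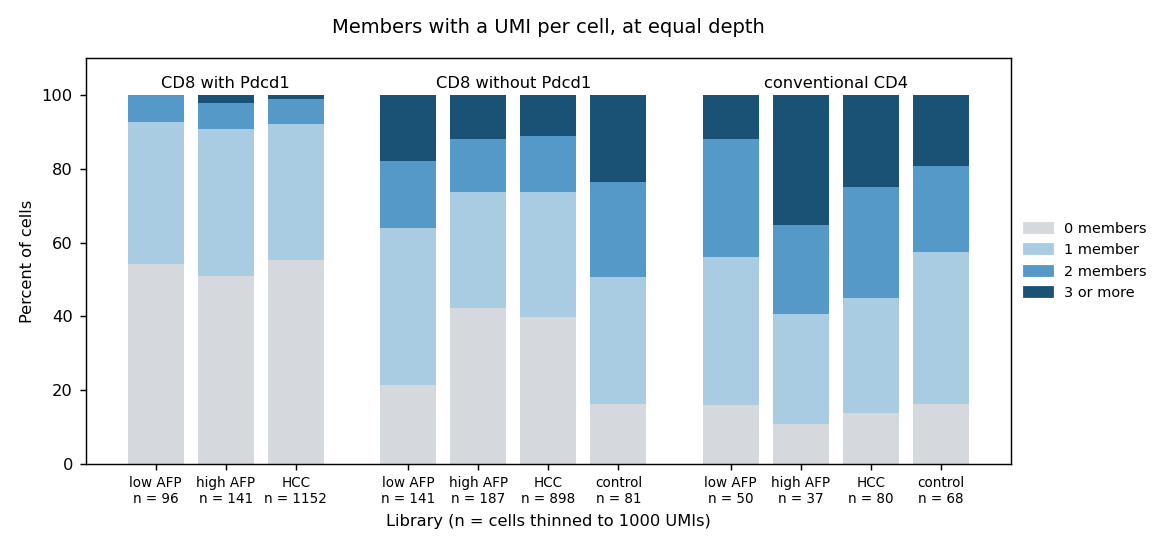
Percent of cells with a UMI of 0, 1, 2 or at least 3 of the 7 genes after thinning to 1000 UMIs, by subset and library. Grey is above 50% in each library for CD8 with Pdcd1 and between 10.8% and 16.2% for conventional CD4.

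Between libraries, CD8 cells of low-AFP, high-AFP and HCC had less Tcf7, Lef1 and Satb1 than CD8 cells of control. A gene counts as called where the CPM values, each plus 10, differ at least 2-fold, and it needs 10 CPM in either library. The 3 comparisons share the control library, which has 91 CD8 cells, against 241, 331 and 2065 in low-AFP, high-AFP and HCC. In low-AFP 3 of the 7 genes were at least 2-fold lower (Tcf7, Lef1 and Satb1), where 1.87% of all genes were. In high-AFP 4 were (the same with Il7r), where 2.11% of all genes were. In HCC those 4 were, where 5.86% of all genes were, and none was 2-fold higher, where 2.75% of all genes were. Relative to control, the median log2 fold of the 7 genes was -0.98, -1.24 and -1.09 for low-AFP, high-AFP and HCC, and that of all genes was -0.042, -0.064 and -0.082.

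Tcf7 was at 68.8 (54.6 to 85.7), 74.3 (60.8 to 90.0) and 64.4 (59.5 to 69.6) CPM in CD8 cells of low-AFP, high-AFP and HCC, against 213 (171 to 261) CPM in control, and the control interval lies above the others. A Tcf7 UMI was seen in 53 of 241, 49 of 331, 313 of 2065 and 41 of 91 CD8 cells of low-AFP, high-AFP, HCC and control, and after thinning in 7.59%, 5.79%, 3.85% and 20.2% of them. Hepatocyte-like cells, which should lack the gene, had thinned shares of 0.313%, 0.184%, 0.624% and 0.0419%. Median depth was 4342, 3719, 4298 and 4523 UMIs in CD8 cells and 18772, 13749, 2233 and 14294 UMIs in hepatocyte-like cells. Lef1 was at 25.8 (17.4 to 36.8), 33.3 (24.4 to 44.2) and 33.6 (30.1 to 37.4) CPM, against 95.9 (68.8 to 130) CPM in control. Satb1 was at 68.8, 73.6 and 82.4 CPM, against 187 (148 to 233) CPM in control. For these 3 transcription factors the intervals of low-AFP, high-AFP and HCC overlapped, and that of control lay above them.

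Il7r was at 237, 164 and 180 CPM in CD8 cells of low-AFP, high-AFP and HCC, against 475 CPM in control. Without the 10 CPM added for calls, its ratio to control was 0.498 (0.414 to 0.600), 0.346 (0.285 to 0.419) and 0.379 (0.328 to 0.441). S1pr1, Klf2 and Ltb were lower than control by less than the 2-fold limit in each comparison, with log2 folds between -0.43 for Klf2 in low-AFP and -0.81 for Ltb in HCC. Against low-AFP, high-AFP CD8 cells had none of the 7 genes 2-fold lower, where 0.157% of all genes were. Against high-AFP, HCC CD8 cells had none either, where 4.52% of all genes were.

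The makeup of CD8 cells moved with these differences. CD8 cells with a Pdcd1 UMI numbered 96 of 241 in the low-AFP library, 141 of 331 in the high-AFP library and 1154 of 2065 in the HCC library, against 8 of 91 in control. In CD8 cells without Pdcd1 alone, 1 gene (Lef1) was called 2-fold lower in low-AFP, where 2.39% of all genes were. None was in high-AFP, where 2.86% of all genes were, or in HCC, where 6.14% of all genes were. Tcf7 in those cells still lay at 113, 121 and 117 CPM, against 227 CPM in control. Without the 10 CPM added for calls, its ratios were 0.499 (0.362 to 0.687), 0.536 (0.395 to 0.728) and 0.517 (0.411 to 0.657). Klf2 and S1pr1 in them had ratios to control whose intervals include 1 in each library. Other naive and central memory genes of CD8 cells behaved in part alike: of 22, 4 were 2-fold lower for low-AFP, 6 for high-AFP and 3 for HCC. Cd27 and Cd28 were higher in HCC, at 504 and 460 CPM, against 192 and 178 CPM in control. Inhibitory receptor and exhaustion genes were 2-fold higher in 8 of 11, 9 of 10 and 10 of 11 cases, and cytotoxic and effector genes in 6 of 18, 6 of 17 and 9 of 18. None of 11 interleukin 7 signalling genes passed the limit in any of the 3 comparisons.

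**Figure D5:**
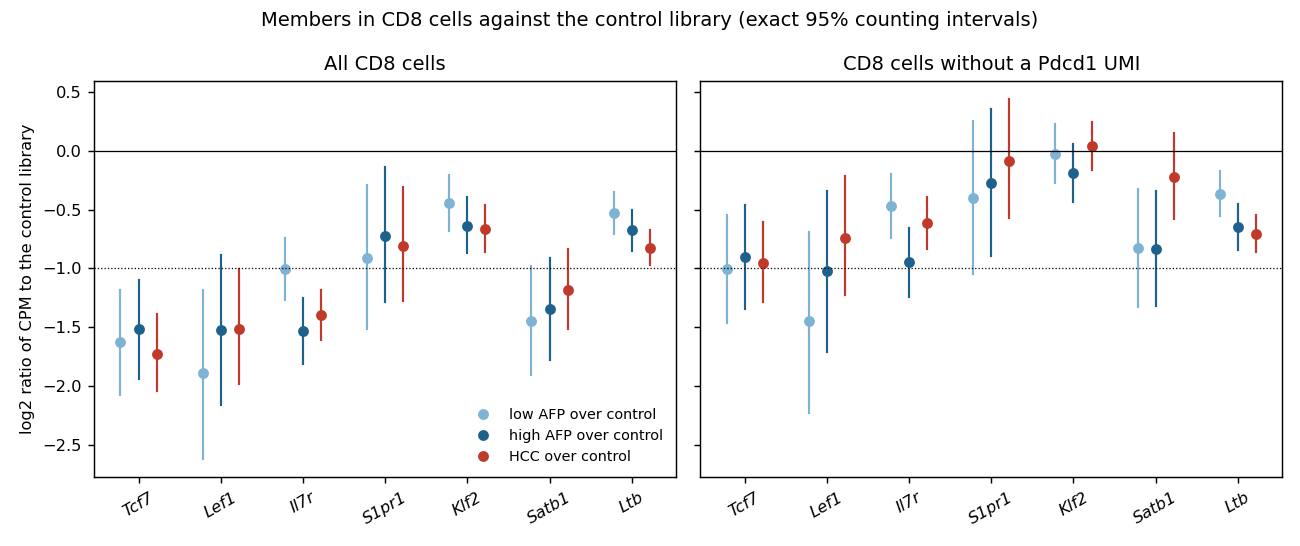
Log2 ratios of CPM to the control library, with exact 95% counting intervals, in all CD8 cells (left) and in CD8 cells without a Pdcd1 UMI (right). The dotted line marks a 2-fold lower level of CPM without the 10 CPM added for calls, so a point just under it need not be called. On the left the 3 points of Tcf7 lie under the dotted line, and on the right the points of Klf2 and S1pr1 have intervals that cross 0.

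Other features of the libraries moved with the CD8 differences, and their part in them was not tested. The summed level of 12 hepatocyte genes in CD8 droplets was 12783, 17566, 1705 and 17974 CPM in low-AFP, high-AFP, HCC and control, with all 12 detected. That of 15 genes of the dissociation response was 2207, 1895, 4542 and 2164 CPM. With ribosomal protein and hepatocyte genes left out of the total, Tcf7 was still at 95.6, 104 and 90.0 CPM in CD8 cells of low-AFP, high-AFP and HCC, against 306 CPM in control. The choice of T cells in control mattered more. A cluster (33) with 88 control cells was left out because it got no name. The hepatocyte marker list scored highest in it (0.579), with the T list next (0.523). None of the hepatocyte list was among its leading genes, which held 2 markers of another list and several NK receptors. In control this cluster had 1158 CPM of Cd8a, 749 CPM of Cd3e and 2684 CPM of Gzmb. It had 149 CPM of Tcf7 and 993 CPM of Ltb, with 79.3 CPM of Il7r, 22.2 CPM of Klf2, 19.0 CPM of Lef1, 15.9 CPM of Satb1 and 6.34 CPM of S1pr1. With these cells counted as T cells, Tcf7 and Lef1 were the genes 2-fold lower in low-AFP CD8 cells, and Tcf7 alone was in high-AFP and HCC. The log2 folds of Tcf7 were then -1.34, -1.24 and -1.43 in low-AFP, high-AFP and HCC, and those of Klf2 0.23, 0.05 and 0.05. Choosing T cells by markers alone gave -1.28, -1.06 and -1.37 for Tcf7, again the 1 gene past the limit in each comparison. Tcf7 was 2-fold lower in the 3 comparisons under both of these rules, and with doublets kept (-1.29, -1.28 and -1.39). How many of all genes passed the limit under these rules is not given here.

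Conventional CD4 cells had neither Tcf7 nor Lef1 2-fold lower than control, at 50 cells in low-AFP, 80 in HCC and 68 in control (37 in high-AFP, under the minimum of 50 for a call). Tcf7 was at 112 (69.5 to 172), 259 (172 to 374) and 190 (144 to 245) CPM in low-AFP, high-AFP and HCC, against 194 (145 to 255) CPM in control. The ratio to control was 0.579 (0.331 to 0.978) in low-AFP and 0.978 (0.662 to 1.45) in HCC. Whether these differ from the ratios in CD8 cells was not tested. Satb1 was the 1 gene 2-fold lower in low-AFP, where 10.2% of all genes were, and in HCC, where 12.7% of all genes were. It had 32.1, 55.5 and 106 CPM in low-AFP, high-AFP and HCC, against 317 CPM in control, from 6, 6, 33 and 85 UMIs. Klf2 was the 1 gene 2-fold higher in HCC, where 5.15% of all genes were, with 817 (720 to 924) CPM in HCC, against 284 (224 to 355) CPM in control. Of the conventional CD4 cells of HCC 77.5% were in cluster 9 and 17.5% in cluster 4, whereas cluster 8 held 92.0% of the low-AFP, 97.3% of the high-AFP and 97.1% of the control ones. High-AFP CD4 cells also had more Klf2 than control (906 CPM) and low-AFP cells did not (278 CPM). S1pr1 had 150, 287 and 183 CPM, against 101 CPM in control, below the 2-fold limit in low-AFP and HCC. Dissociation response genes summed to 2803, 2672 and 6009 CPM in CD4 cells of low-AFP, high-AFP and HCC, against 2826 CPM in control, and their part in the HCC difference of Klf2 was not tested.

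Regulatory T cells (6 to 10 a library) and Trdc cells outside HCC (4 to 8) were too few for values. The 35 Trdc cells of HCC had 172 (115 to 246) CPM of Tcf7, 1130 (975 to 1302) CPM of Il7r, 1361 (1191 to 1548) CPM of Ltb and 621 (508 to 752) CPM of Klf2. In the same library conventional CD4 cells had 190, 737, 1052 and 817 CPM of these genes and all CD8 cells 64.4, 180, 533 and 321 CPM. Il7r and Ltb thus had their highest HCC levels in Trdc cells, with intervals above those of CD4 cells. T cells with no subset marker had 604, 436 and 472 CPM of Il7r in low-AFP, high-AFP and HCC, against 612 CPM in control, and 167, 198 and 95.3 CPM of Satb1, against 387 CPM in control.

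NK-like cells had Tcf7 but little Lef1 or S1pr1. Tcf7 was at 95.9, 71.1 and 131 CPM in low-AFP, high-AFP and HCC, against 137 (78.1 to 222) CPM in control. Lef1 was at 3.84, 4.91, 18.1 and 17.1 CPM, from 1, 2, 20 and 2 UMIs. Only HCC and high-AFP had 50 cells, 221 and 94. Between them, Klf2 and S1pr1 were the 2 genes at least 2-fold higher in HCC, where 2.17% of all genes were. Klf2 was at 460 (421 to 502) CPM in HCC, against 120 (88.9 to 159) CPM in high-AFP. S1pr1 had 12 UMIs in HCC, against 0 UMIs in high-AFP, so its fold rests on few molecules. The dissociation response summed to 5589 CPM in HCC and 2504 CPM in high-AFP NK-like cells, and its part was not tested.

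In B-like cells, Satb1 and Klf2 were higher in HCC than in control, where 1.78% of all genes were 2-fold higher. The B-like cells lay in different clusters: cluster 12 held 714 of 724 in HCC, against 23 of 250 in control, and cluster 11 held 6 in HCC, against 201 in control. Cluster 35 held 4 in HCC, against 26 in control. Its leading genes included Cd79a and Ms4a1 but also Xcl1 and Klra7, and the T list scored second in it (0.743). The part of cluster 35 in the differences below was not tested. Satb1 was at 159, 160 and 382 (359 to 406) CPM in low-AFP, high-AFP and HCC, against 122 (104 to 142) CPM in control. Klf2 was at 1025, 1084 and 1908 CPM, against 816 CPM in control. The HCC library was the high one for both, and against high-AFP only Satb1 passed the 2-fold limit, where 0.999% of all genes did. S1pr1, which B cells use to leave lymphoid tissue, was at 111, 128, 147 and 130 CPM in low-AFP, high-AFP, HCC and control. Tcf7 and Il7r were 2-fold lower in HCC than in control, where 5.70% of all genes were, with 3 against 33 UMIs of Tcf7 and 28 against 54 UMIs of Il7r. With doublets kept, Il7r turned to a log2 fold of 0.78. In those droplets 13 T cell markers summed to 622, 699, 82.3 and 835 CPM in low-AFP, high-AFP, HCC and control, and their part in the difference was not tested. The dissociation response summed to 6257 CPM in HCC B-like cells and 2603 CPM in control.

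The 2 T-like clusters that held most HCC CD8 cells differed in these genes. Cluster 9, with 805 HCC cells of all subsets, had 183 CPM of Tcf7, 93.6 CPM of Lef1, 685 CPM of Il7r, 870 CPM of Klf2, 147 CPM of S1pr1 and 45.0 CPM of Pdcd1. Cluster 4, with 1618 HCC cells, had 15.4, 9.9, 35.0, 87.0 and 14.6 CPM of the same 5 genes and 370 CPM of Pdcd1, but 518 CPM of Ltb, against 806 CPM in cluster 9. The clusters were built without the 7 genes, but from genes that vary with them, so these values are a description.

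HCC CD8 cells were also split by a Tcf7 UMI, again as a description. The 313 cells with Tcf7 had 580 CPM of Il7r, 840 CPM of Klf2, 145 CPM of S1pr1 and 104 CPM of Lef1, against 68.0, 175, 27.7 and 13.8 CPM in the 1752 cells without. The granzyme gene Gzmb was at 119 CPM with Tcf7 and 606 CPM without, and Ccl5 at 12322 and 35775 CPM. Cells with Tcf7 were deeper, at a median of 6586 UMIs against 4119. In the smaller control library, Il7r was at 588 CPM in 41 cells with Tcf7 and 356 CPM in 50 without, and Gzmb at 415 and 707 CPM. Of the 1154 HCC CD8 cells with Pdcd1, 70 had a Tcf7 UMI. Those 70 had 205 CPM of Slamf6, a surface receptor used to mark the renewing fraction, 367 CPM of Il7r and 49.8 CPM of Havcr2, the TIM-3 gene of terminally exhausted cells, against 38.1, 31.5 and 140 CPM in the 1084 without Tcf7.

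Lef1 also appeared in HCC hepatocyte-like cells. These leave out cluster 22, with 368 HCC cells and Afp among its leading genes, and cluster 10, with 67 HCC cells. Both got no name, although the hepatocyte list scored highest in them. In the named hepatocyte-like cells Lef1 was at 15.6 CPM in HCC, from 66 UMIs in 792 cells, against 0.0275, 0.0882 and 0.0357 CPM in low-AFP, high-AFP and control. Most of these UMIs were in 1 cluster (16), where 18 of 31 HCC cells had 44 UMIs, at most 7 in a cell. In those cells Axin2 and Nkd1, which are known targets of beta-catenin signalling, were at 127 and 438 CPM, against 17.9 to 21.6 and 3.0 to 7.3 CPM in cluster 16 of the other libraries. A further 16 UMIs were in cluster 14, 15 of them in 1 cell. T cell markers summed to 59.4 CPM in HCC hepatocyte-like cells and 3.2 to 11.1 CPM in the others.

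The genes with the most similar patterns were found by Pearson correlation of log2(CPM + 10) over 57 points, each a class in a library with at least 50 cells, among 8519 genes. The points share libraries and classes, so this is a description. Closest to Tcf7 were Rab37 (0.925), Cd226 (0.923) and Gm37387 (0.923), and closest to Lef1 were Tcf7 (0.917), Camk4 (0.917) and Gm2682 (0.912). Il7r was nearest to Tespa1 (0.855), Sept1 (0.842) and Sla2 (0.835). The nearest to S1pr1 were Trib2 (0.836), Foxo1 (0.799) and Cd55 (0.786), and to Klf2 Ssh2 (0.828) and Msn (0.818). Satb1 was followed by A430078G23Rik (0.863), Atp2a3 (0.860) and Acap1 (0.854), and Ltb by Rhof (0.929), Stat4 (0.877) and Limd2 (0.872). Over the same points Il7r and Tcf7 had a correlation of 0.822 and Klf2 and Tcf7 one of 0.003.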

How the data were processed

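Droplet single-cell libraries (10x, 3′ version 2), 4 in all, of mouse liver or tumour region were compared. The authors deposited UMI counts per gene and barcode, with Cell Ranger, Seurat 3 and the mm9 build named in the submitters' processing notes and software version 3.0.2 in the matrix headers. The build and annotation bear on which reads reached a gene.

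A barcode was kept from 300 genes and 500 UMIs up, unless mitochondrial UMIs passed 30%. Scrublet's own threshold marked under 0.5% of barcodes, so the highest scores were removed at 0.8% per 1000 barcodes, 230 to 575 a library. Cells were clustered (scanpy 1.11.5, Leiden, 2000 variable genes, 30 components) without the 7 genes, and named from marker lists. Barcodes shared between libraries (23 to 39 a pair) were kept.

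Libraries were compared by CPM of summed UMIs, with 50 cells needed for a call and 20 for a value, and no test. Subsets were compared with edgeR 4.0.16 (R 4.3.3; TMM, filterByExpr, 12 sums, 5 residual degrees of freedom). Its block is the library: subsets taken from 1 library pair within it, and nothing pairs one library with another. The p-values rest on the spread that remains after library and subset are fitted, and edgeR shares the estimate of that spread in part across genes. The libraries are different groups, not replicates of a group. DESeq2 1.42.0 was an alternative. The fit was tested on simulated data. Regulatory and Trdc T cells were too few to test.

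The 7 genes and all gene lists were chosen with earlier results of these data known. Genes named are the 7, their 3 nearest by correlation and, per list, up to 4 called genes of largest fold, of which a few are not reported here; other names (Cd27, Cd28, Bcl2 and Foxo1 as not called, the genes of the Tcf7 and cluster splits, and Axin2 and Nkd1 in hepatocyte-like cells) were chosen after their values were seen. Alternatives changed the normalization, filters, T cell rule, doublets, depth, block and libraries.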

Additional observations from a re-analysis of the deposited data

Results flagged for a closer look

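Satb1 is singled out because its HCC and control levels differed by more than 2-fold in opposite directions in different lymphocytes. The log2 fold of HCC over control was -1.09 in CD8 T cells and -1.49 in conventional CD4 T cells, and 1.57 in B-like cells. Of all genes, 5.86% were 2-fold lower in those CD8 cells, 12.7% were 2-fold lower in CD4 cells and 1.78% were 2-fold higher in B-like cells. In each of these cell types, most HCC cells lay in other clusters than most control cells, and the part of this was not tested. The CD8 value was -0.41 with T cells from markers alone, -0.44 with doublets kept, -0.47 with cluster 33 and -0.21 in CD8 cells without Pdcd1, each under 2-fold. With 1 library in each group, the difference between these cell types was not tested.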

How the results depend on the processing

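Calls between subsets depended on the library block. Without the replicate block, 137 genes were called between CD8 and conventional CD4 cells in place of 468, and 46 between CD8 cells with and without Pdcd1 in place of 659. DESeq2 called 308 and 213 genes, T cells from markers alone gave 224 for the Pdcd1 contrast, and leaving out 1 library gave 216 (without HCC) to 476 and 246 (without HCC) to 685. The cause was not tested. In CD8 cells without Pdcd1 against CD4, log2 folds that did not pass the test changed sign. Lef1 was at 0.019 without Mki67 or Top2a cells and at -0.41 to 0.13 with 1 library left out. Klf2 was at -0.16 with markers alone, -0.036 with doublets kept, -0.078 with cluster 33 and -0.14 to 0.38 with 1 library left out. Satb1 was at -0.0029 with cluster 33, and at 0.93 without control (edgeR adjusted p = 0.018). Il7r in B-like cells, HCC over control, was at 0.78 with doublets kept. Of the 7 genes in CD8 cells, the number 2-fold lower than control was 1 in HCC and 1 in high-AFP with markers alone, doublets kept or cluster 33, and 0 in both in CD8 cells without Pdcd1. In low-AFP it was 1 with markers alone and 1 without Pdcd1. In CD4 cells of HCC, 2 genes were 2-fold higher with at most 15% mitochondrial UMIs or without Mki67 or Top2a cells. The share of all genes past the limit under these alternative rules was not set beside the counts, so the counts only describe the 7 genes. Tcf7 in CD8 cells was at 95.6, 104, 90.0 and 306 CPM in low-AFP, high-AFP, HCC and control without ribosomal and hepatocyte genes in the total, at 76.3 CPM in HCC and 264 CPM in control without Mki67 or Top2a cells, and thinned shares were 7.59%, 5.79%, 3.85% and 20.2%. Under the settings run, 115 other values that answer a comparison stayed inside their counting interval or, for a count of genes, within 1.5 times. With 2 UMIs of the subset marker, fewer than 3 libraries had all the subsets of CD8 against CD4, so that contrast was not run. Low cell numbers limit the values of Trdc, regulatory and high-AFP CD4 cells.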
